A study of Mus musculus with 6 samples.

Results

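The genes described here are 36 mouse genes whose products fold proteins in the endoplasmic reticulum (ER), carry them across its membrane, or remove them when folding fails, together with the sensors of the unfolded protein response. They were chosen by name, as the rows of the 6 expression tables that carry 1 of these 36 symbols, and all 36 were found among 23179 rows (Ero1a and Ero1b are listed under the older symbols Ero1l and Ero1lb). Expression was measured by RNA sequencing of islets, the hormone-secreting cell clusters of the pancreas. The knockout group (Ffar3 KO, 3 libraries) came from Ffar3-/- male mice, which lack a receptor for the short-chain fatty acids that gut microbes make, and the wild-type group (WT, 3 libraries) from wildtype male mice. Both groups were of strain C57BL/6J and 10 to 14 weeks old, and each library held islets pooled from 2 pancreata. The labels describe the libraries as biological replicates. They name no cell type or promoter that limits the deletion, and no culture or treatment of the islets.

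Values are FPKM, fragment numbers scaled for transcript length and sequencing depth, so levels of different genes can be compared per length. Ffar3 itself was listed at 0 FPKM in the first 2 KO libraries, while the third had 0.105 FPKM, against 4.69, 5.26 and 6.68 FPKM in the WT libraries. Islet hormone transcripts marked every library as islet: Iapp, the beta cell peptide amylin, was between 27415 and 33357 FPKM in KO libraries and between 34745 and 36606 FPKM in WT libraries, while Ins2 was listed at 0 throughout and Ins1 in all but KO replicates 2 and 3. The KO libraries differed among themselves in transcripts of the exocrine pancreas. Acinar cells, which make the digestive enzymes, are also rich in ER. The 26 acinar markers together took 6.12%, 36.3% and 51.2% of the FPKM sum of KO replicates 1, 2 and 3, against 6.38% to 9.61% in WT libraries. The most abundant of them, the chymotrypsinogen gene Ctrb1, had 4406, 46086 and 92308 FPKM in the KO libraries, against 4653 to 7431 FPKM in WT libraries, and the elastase gene Cela2a was at 3877, 37386 and 81270 FPKM against 4154 to 6666 FPKM. Only Amy2b of this list was ever at 0, in KO replicates 2 and 3. The 10 markers of B and plasma cells, another cell type rich in ER, summed to 117, 163 and 18.3 FPKM in KO replicates 1, 2 and 3, against 6.998 to 8.24 FPKM in WT libraries, where 4 to 7 of them were at 0. The 6 macrophage markers summed to 57.5, 130 and 29.4 FPKM in the KO libraries, against 29.2 to 31.7 FPKM in WT libraries. Of the duct markers Krt19 was at 3.35, 23.3 and 30.8 FPKM in KO libraries, against 0.825 to 1.12 FPKM in WT libraries (adjusted p = 0.015), while the 7 together summed to 174, 223 and 229 FPKM against 162 to 175 FPKM. Among endocrine markers, the 10 of alpha, delta and PP cells summed to 27807, 18966 and 17315 FPKM in KO libraries, against 33801 to 40260 FPKM in WT libraries. The beta cell transcription factor Mafa was at 101.4, 63.4 and 44.7 FPKM, against 197 to 213 FPKM (adjusted p = 0.0044), the largest fall among the beta markers. Ucn3, Nkx6-1 and Pcsk1 were also lower, with log2 differences of -0.86, -0.66 and -0.38 (adjusted p of 0.0028, 0.0068 and 0.021). For Iapp, G6pc2, Slc30a8, Slc2a2 and Pdx1 the log2 differences were -0.22, 0.07, -0.004, -0.24 and -0.14, with adjusted p from 0.082 to 0.98. The part of these cell types in the results below was not tested, beyond the fits given beside them. For this reason KO replicate 1 is also given apart from KO replicates 2 and 3. Fewer cells of a type and less RNA per cell cannot be told apart in such bulk samples. Total depth is unknown. From the steps between low values, one FPKM stood for an estimated 59.6% as many fragments in KO replicate 3 as in WT replicate 1, for 89.6% in KO replicate 2 and for 108% to 119% in the other libraries, so low values in KO replicate 3 rest on the fewest fragments.

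Secreted and membrane proteins enter the ER through the Sec61 channel, aided by the translocon-associated protein (TRAP) complex. In the lumen the HSP70-type chaperone BiP, the lectins calnexin and calreticulin, and disulfide isomerases fold them, and misfolded chains are pulled back through the HRD1 and SEL1L complex for destruction, which is called ER-associated degradation. The sensors IRE1, PERK and ATF6 respond to misfolded proteins by raising the transcription of these same helpers. Beta cells, whose main product is proinsulin, rely on this machinery.

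All 36 ER genes passed the filter on low values, a mean of 1 FPKM over the libraries, and 11 rose and 2 fell in KO islets (limma, Benjamini-Hochberg adjusted p under 0.05 over 11669 rows). Across all tested rows 39.9% passed, 20.3% higher and 19.6% lower, against 13 of 36 here (36.1%), so the number of members called is near the background. The median log2 difference was 0.03 over the members and -0.01 over all tested rows. The rises were those of Derl3, Sel1l, Eif2ak3, Edem3, Creld2, Ern1, Edem1, Atf6, Hsp90b1, Dnajb11 and Ero1l, and the falls those of Ssr2 and Sdf2l1. The 3 KO libraries all lay above the 3 WT libraries for 14 members and below them for 5, where the same held for 27.8% and 28.5% of all tested rows. For Creld2, Ern1, Eif2ak3, Edem3, Sel1l, Derl3 and Ssr2 the call was kept in each of the 18 alternative fits. When the libraries were scaled to the same sum over all rows outside the acinar list, called non-acinar scaling here, the median of all rows was -0.13, and 7 members were called higher and 3 lower, where 7.64% and 13.7% of all rows were. With insulin also left out of those sums, since Ins1 was at 0 in all but KO replicates 2 and 3, the median of all rows was -0.05, and 10 members were higher and 2 lower, where 12.9% and 14.1% of all rows were. A fit with the mean acinar level of each library as a covariate is named the acinar-adjusted fit. It called 8 members higher and 2 lower, where 14.0% and 10.7% of all rows were. Only KO replicates 2 and 3 had a high acinar level, so its genotype term rests largely on KO replicate 1 against WT. Its values are therefore not separate from those of KO replicate 1 alone, given below.

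**Figure D1:**
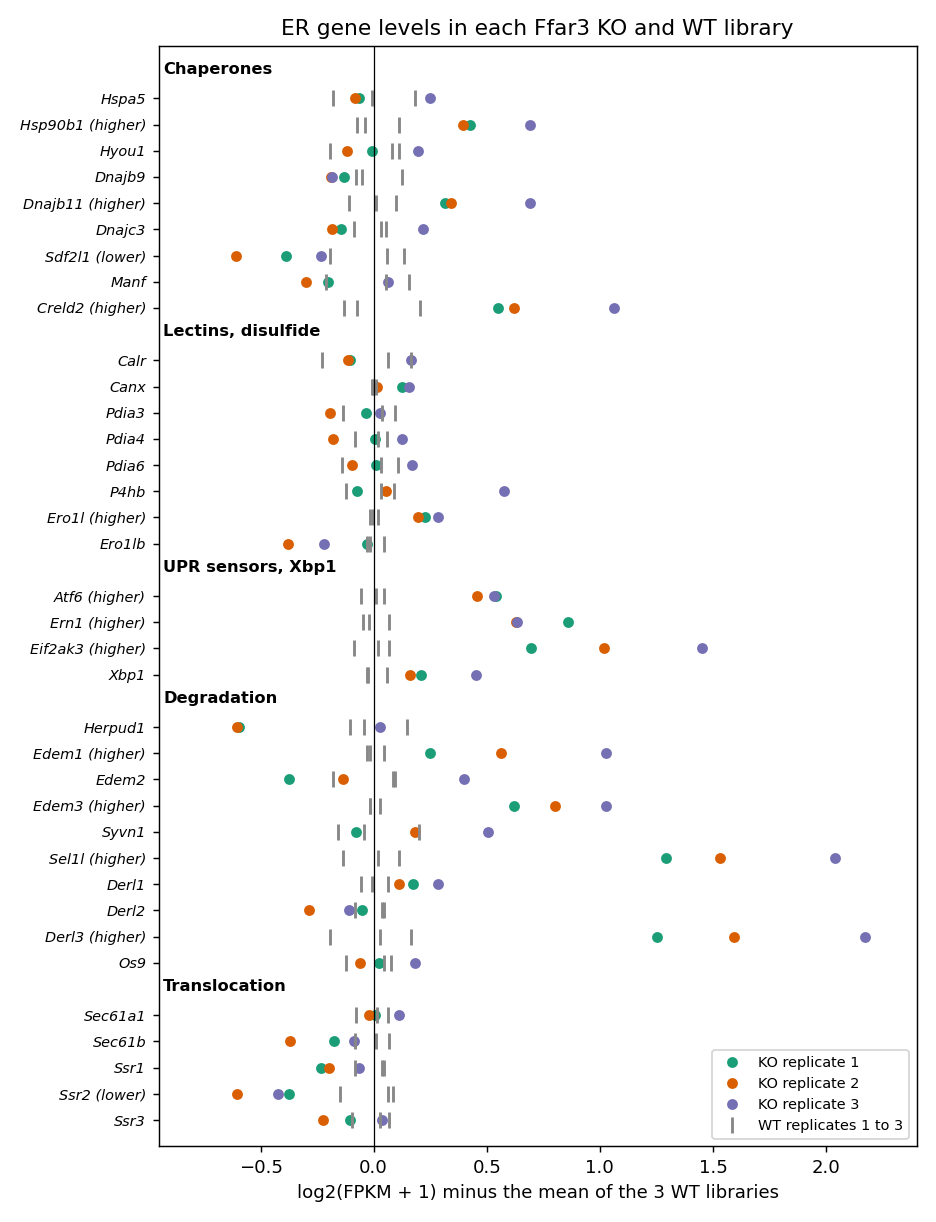
Level of each of the 36 ER genes in each library, as log2(FPKM + 1) minus the mean of the 3 WT libraries (coloured points, KO replicates 1 to 3; grey ticks, WT replicates 1 to 3). Genes marked higher or lower had an adjusted p under 0.05. Sel1l and Derl3 stand farthest to the right, and KO replicate 3 is the highest of the 6 libraries for 22 of 36 genes.

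In KO replicate 1 alone against WT, a comparison that takes the spread of this single library from WT, 11 members were higher and 2 lower, where 15.2% and 10.9% of all rows were. The 11 higher members were those called in the whole comparison, which contains the same KO and WT libraries and is thus not independent of this one. The lower ones were Ssr2 and Herpud1, and Sdf2l1 missed the threshold (log2 difference -0.39, adjusted p = 0.070). In KO replicates 2 and 3 against WT, 12 were higher and 3 lower, where 24.8% and 24.3% of all rows were, with Xbp1 (0.31, adjusted p = 0.042) and Ero1lb (-0.30, adjusted p = 0.028) called beside the others. Both comparisons use the same WT libraries. Both acinar-rich KO libraries lay above KO replicate 1 for 11 of 36 members and below it for 6, where 31.9% and 38.6% of all rows did. KO replicate 3 was the highest of the 6 libraries for 22 members (23.5% of all tested rows). Among the WT libraries, replicate 2 was the lowest for 29 members (37.7% of all tested rows), and its acinar share was also the lowest of the WT libraries. That share's part in these orders was not tested.

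**Figure D2:**
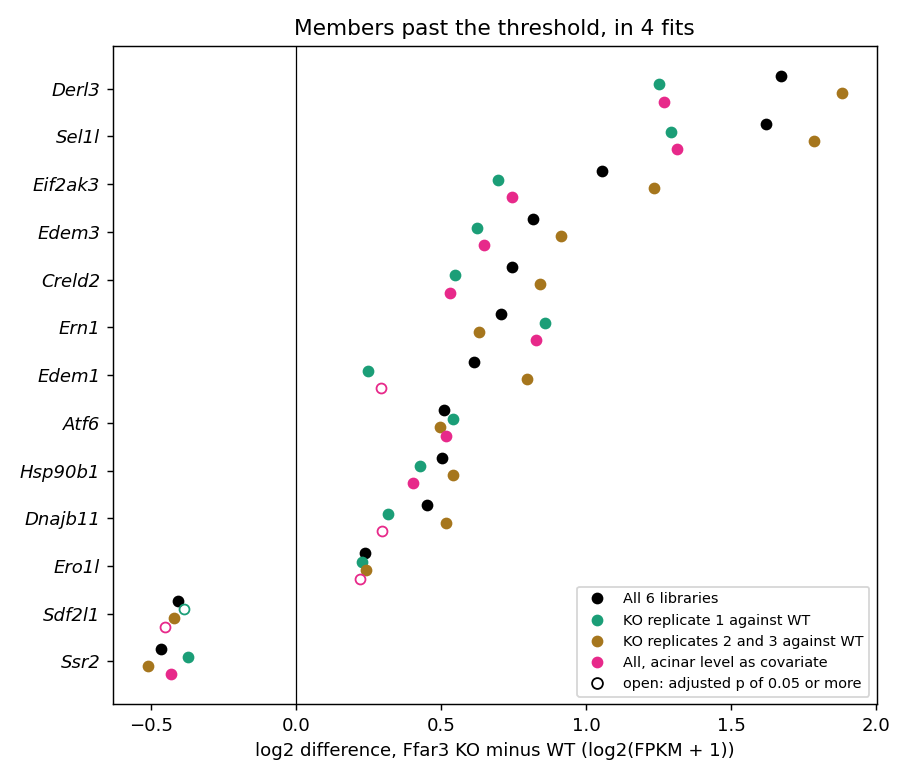
Log2 difference, Ffar3 KO minus WT, of the 13 called members in 4 fits: all 6 libraries, KO replicate 1 against WT, KO replicates 2 and 3 against WT, and the acinar-adjusted fit. Open points missed the threshold. No point changes side of 0, and Derl3, Sel1l and Eif2ak3 are smaller in KO replicate 1 than in KO replicates 2 and 3.

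Many ER genes carry a short DNA element in their promoter, the ER stress response element (ERSE), which ATF6 and XBP1 bind with the CCAAT-binding factor NF-Y. The windows from 250 bases before to 50 after the start sites (RefSeq, GRCm38.p6) were therefore searched on both strands for ERSE, which is CCAAT, 9 bases of any kind and CCACG, for ERSE-II, which is ATTGG, 1 base of any kind and CCACG, and for the UPRE, TGACGTGG. The UPRE read backwards begins with the CCACG of the other patterns, so copies could overlap. An entry was matched for 30 of the 36 members; Hyou1, Manf, Atf6, Derl1, Sec61a1 and Ssr2 had none. For 26 of the 30, among them the 5 whose stretches are printed, the bases after the start site were found in a GENCODE M21 transcript of the gene, and for the other 4 they were not. ERSE was found for 10 members and ERSE-II for 2, together 12 of 30 (40%), against 49 of 27025 genes in the whole table (0.181%). Many of these genes are known for this element, so its presence is a description. The UPRE was found in 0 member windows and in 0.676% of all windows. The ERSE copies are shown because genes that rose and genes that did not pass both hold one. Each is written 5′ to 3′ in its own reading direction, with the fixed letters in capitals.
Hspa5, chr2:34772025-34772043, plus strand: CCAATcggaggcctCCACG
Hsp90b1, chr10:86705638-86705656, minus strand: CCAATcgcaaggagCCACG
Hsp90b1, chr10:86705533-86705551, plus strand: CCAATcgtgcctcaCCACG
Dnajc3, chr14:118937827-118937845, plus strand: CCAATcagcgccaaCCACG
Creld2, chr15:88819520-88819538, minus strand: CCAATtgaggctcgCCACG
Calr, chr8:84847075-84847093, plus strand: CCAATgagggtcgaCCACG
Canx, chr11:50325800-50325818, minus strand: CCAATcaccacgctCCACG
Pdia6, chr12:17266491-17266509, plus strand: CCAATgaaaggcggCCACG
Ero1lb, chr13:12565682-12565700, minus strand: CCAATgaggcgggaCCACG
Syvn1, chr19:6046532-6046550, plus strand: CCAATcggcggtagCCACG
Derl3, chr10:75893242-75893260, minus strand: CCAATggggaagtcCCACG
The ERSE-II copies were the following.
Dnajb11, chr16:22857852-22857862, plus strand: ATTGGcCCACG
Herpud1, chr8:94386377-94386387, plus strand: ATTGGgCCACG

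Of the 12 members with an element, Derl3, Creld2, Hsp90b1 and Dnajb11 rose and none fell, where 20.3% and 19.6% of all tested rows did. Hspa5, Dnajc3, Calr, Canx, Pdia6, Ero1lb, Syvn1 and Herpud1 did not pass. Of the 18 members with neither, 6 rose (Sel1l, Eif2ak3, Edem3, Ern1, Edem1 and Ero1l) and 1, Sdf2l1, fell. The median log2 difference was 0.07 with an element and 0.02 without. A match is not a test of binding, and no match says only that these letters are absent from the window. The stretches around the elements of the 3 ERSE genes that rose are printed in the direction of the gene, with the elements in capitals, to show their setting: Hsp90b1 has a pair of them in opposite directions.
Derl3, chr10:75893202-75893300, plus strand: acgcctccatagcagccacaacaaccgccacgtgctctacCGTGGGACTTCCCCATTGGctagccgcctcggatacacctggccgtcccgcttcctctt
Creld2, chr15:88819480-88819578, plus strand: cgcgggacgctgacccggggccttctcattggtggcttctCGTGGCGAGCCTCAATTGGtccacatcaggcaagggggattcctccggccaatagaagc
Hsp90b1, chr10:86705493-86705694, minus strand: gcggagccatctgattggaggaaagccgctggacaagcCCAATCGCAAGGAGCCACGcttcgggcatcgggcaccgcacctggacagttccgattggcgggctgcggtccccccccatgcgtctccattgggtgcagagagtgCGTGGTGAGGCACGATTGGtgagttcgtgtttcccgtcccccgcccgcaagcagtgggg
For the ERSE-II genes the stretches were as follows.
Dnajb11, chr16:22857812-22857894, plus strand: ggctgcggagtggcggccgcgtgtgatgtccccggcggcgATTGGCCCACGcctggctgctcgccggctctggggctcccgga
Herpud1, chr8:94386337-94386427, plus strand: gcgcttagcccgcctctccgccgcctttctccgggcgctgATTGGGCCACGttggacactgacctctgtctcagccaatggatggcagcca

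**Figure D3:**
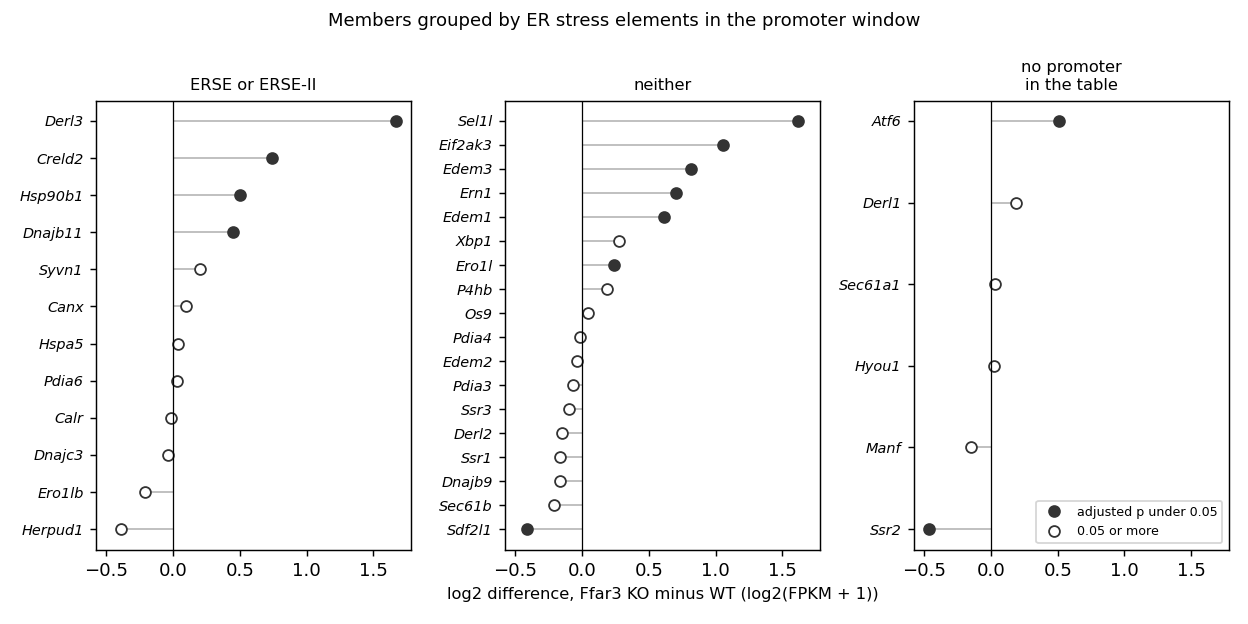
Log2 difference, Ffar3 KO minus WT, of each member, grouped by whether its promoter window holds an ERSE or ERSE-II, holds neither, or has no entry in the promoter table. Filled points passed the threshold. Rises appear with and without an element, led by Derl3 (1.67) and Sel1l (1.62).

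The sensors of the unfolded protein response and Xbp1 were higher in every KO library than in any WT library, as were 27.8% of all tested rows. Of these 4 genes, Atf6, Ern1 and Eif2ak3 rose and none fell, where 20.3% and 19.6% of all tested rows did. In this group, as among the degradation genes and the lectin and disulfide group, 0 members were lower in limma at an unadjusted p under 0.05 too. Atf6, the precursor of a transcription factor cut free in the Golgi, was at 39.3, 37.1 and 39.1 FPKM in KO libraries, against 27.6, 25.6 and 26.9 FPKM in the WT libraries. Its KO values were alike in acinar-poor and acinar-rich libraries, with a log2 difference of 0.51 (SE 0.05, adjusted p = 0.0011). Under non-acinar scaling it was 0.37 (adjusted p = 0.065), and with insulin also left out 0.47 (adjusted p = 0.0097).

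Ern1, which encodes the kinase and RNase IRE1 alpha that splices Xbp1, was at 49.8, 42.3 and 42.4 FPKM in KO libraries, against 26.6, 28.4 and 26.1 FPKM in WT libraries. The highest value was in KO replicate 1, the library with the lowest acinar share. The log2 difference was 0.71 (SE 0.08, adjusted p = 0.0013). Eif2ak3, which encodes PERK, the kinase that slows translation, was at 50.4, 63.2 and 85.7 FPKM in KO libraries, against 31.2, 32.2 and 28.8 FPKM in WT libraries. Its KO values stood in the order of the acinar share, and the groups did not overlap. KO replicates 2 and 3 both lay above KO replicate 1 for 31.9% of all tested rows. The highest WT value of Eif2ak3 was in WT replicate 2, which had the lowest WT acinar share. The part of acinar cells in this order was not tested. The log2 difference was 1.06 (SE 0.17, adjusted p = 0.0049) over all libraries and 0.70 (adjusted p = 0.0034) in KO replicate 1 alone.

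Xbp1, the transcription factor made active by IRE1, was at 338, 326 and 400 FPKM in KO libraries, against 304, 286 and 286 FPKM in WT libraries. The groups did not overlap, but the log2 difference of 0.28 missed the threshold (adjusted p = 0.061), which it passed without KO replicate 1 (0.31, adjusted p = 0.042), with a robust variance prior (adjusted p = 0.0485) and under quantile normalization (adjusted p = 0.026). A gene-level FPKM does not separate spliced from unspliced Xbp1. Among the B and plasma cell markers, which also use Xbp1, the antibody joining chain Igj was at 47.3, 75.9 and 6.74 FPKM in KO libraries and at most 0.413 FPKM in WT libraries. The part of these cells in the Xbp1 values was not tested.

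**Figure D4:**
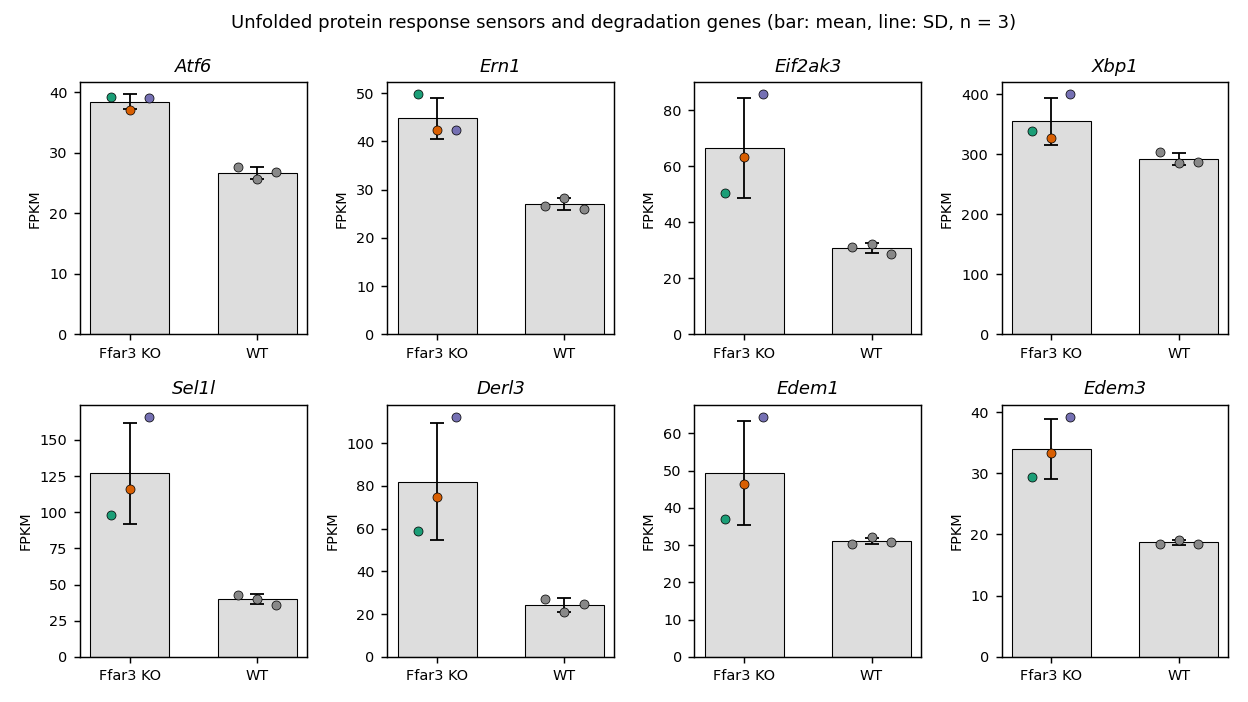
FPKM of 4 unfolded protein response genes and 4 degradation genes in Ffar3 KO and WT islets (bars, mean; lines, SD, n = 3 per group; green, orange and purple points, KO replicates 1, 2 and 3; grey points, WT libraries). The 4 degradation genes shown are those called higher among the 10. Of those not shown, Syvn1, Herpud1, Edem2, Derl2 and Os9 had overlapping groups and Derl1 did not. In all 8 panels the lowest KO library lies above the highest WT library, as it does for 27.8% of all tested rows.

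The degradation genes held the 2 largest rises. Of 10, Sel1l, Derl3, Edem1 and Edem3 rose and none fell, where 20.3% and 19.6% of all tested rows did. Log2 differences over the 10 ran from -0.39 to 1.67, with a median of 0.20. Sel1l, the adaptor that holds the ubiquitin ligase HRD1 in its complex, was at 98.4, 116 and 166 FPKM in KO libraries, against 42.9, 40.2 and 35.97 FPKM in WT libraries. Every KO library was thus more than 2-fold above the highest WT library. The mean was 127 ± 35 FPKM in KO and 39.7 ± 3.5 FPKM in WT (SD, n = 3 each), a ratio of 3.20 and a log2 difference of 1.62 (SE 0.18, adjusted p = 0.0013). In KO replicate 1 alone the log2 difference was 1.29, and in the acinar-adjusted fit it was 1.31 (adjusted p = 0.0019). The KO values of Sel1l stood in the order of the acinar share, and its WT values did not.

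Derl3, a derlin that helps move misfolded proteins out of the ER, was at 58.9, 74.8 and 112 FPKM in KO libraries, against 27.2, 21.0 and 24.6 FPKM in WT libraries. It averaged 82.0 ± 27.4 FPKM in KO and 24.3 ± 3.11 FPKM in WT (SD, n = 3 each), a ratio of 3.38. The log2 difference was 1.67 (SE 0.22, adjusted p = 0.0023), with 1.25 in KO replicate 1 alone and 1.27 in the acinar-adjusted fit (adjusted p = 0.0022). The KO values of Derl3 also stood in the order of the acinar share, as did its WT values. The other derlins did not pass in the whole comparison, but Derl1 was called higher under quantile normalization (adjusted p = 0.0175). Derl1 was at 105, 100 and 113 FPKM in KO libraries against 97.0, 89.0 and 92.1 FPKM in WT libraries (adjusted p = 0.064), and Derl2 at 39.1, 33.1 and 37.5 FPKM against 41.6, 38.3 and 41.9 FPKM (adjusted p = 0.15). Derl3 therefore made up 29.1%, 35.97% and 42.7% of the summed derlin FPKM in KO libraries, against 16.4%, 14.2% and 15.5% in WT libraries.

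Edem1, Edem2 and Edem3 belong to the mannosidase family that marks misfolded glycoproteins for removal, and they differed from each other. Edem3 was at 29.3, 33.3 and 39.2 FPKM in KO libraries, against 18.5, 19.1 and 18.5 FPKM in WT libraries (log2 difference 0.82, SE 0.10, adjusted p = 0.0018). Its KO values stood in the order of the acinar share, and the acinar-adjusted fit gave 0.65 (adjusted p = 0.0028). Edem1 was at 37.1, 46.4 and 64.5 FPKM in KO libraries, against 30.4, 32.2 and 30.7 FPKM in WT libraries (log2 difference 0.61, adjusted p = 0.032). Its groups did not overlap, but its KO values spread widely and stood in the order of the acinar share. The log2 difference was 0.25 in KO replicate 1 alone and 0.80 in the other KO libraries, and 0.29 (adjusted p = 0.10) in the acinar-adjusted fit. For Edem1 as for Edem3, the highest WT value was in WT replicate 2, which had the lowest WT acinar share. The part of acinar cells in these orders was not tested. Edem1 missed the threshold without KO replicate 2 (adjusted p = 0.071) and without WT replicate 1, 2 or 3 (adjusted p of 0.098, 0.076 and 0.095), and without a filter on low values (0.058). Edem2 was at 51.9, 61.4 and 89.4 FPKM in KO libraries, against 72.2, 59.4 and 71.6 FPKM in WT libraries. KO replicate 1 lay below and KO replicate 3 above all WT libraries (log2 difference -0.04, adjusted p = 0.89).

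The remaining degradation genes did not pass in the whole comparison. Syvn1, which encodes the ligase HRD1 itself, was at 75.8, 90.9 and 114 FPKM in KO libraries against 92.1, 71.6 and 77.7 FPKM in WT libraries, with overlapping groups. Within each library the ratio of Sel1l to Syvn1, a value free of scaling between libraries, was 1.30, 1.28 and 1.46 in KO and 0.466, 0.561 and 0.463 in WT. Herpud1, a scaffold of the same complex and a strongly inducible ER stress gene, was at 645, 639 and 994 FPKM in KO libraries against 1079, 904 and 944 FPKM in WT libraries. KO replicates 1 and 2 lay below every WT library, and KO replicate 3 within their range. Its log2 difference of -0.39 did not pass (adjusted p = 0.14), but it was -0.59 in KO replicate 1 alone (adjusted p = 0.017), -0.60 without KO replicate 3 (adjusted p = 0.014) and -0.63 in the acinar-adjusted fit (adjusted p = 0.038). It was called lower as well under non-acinar scaling (adjusted p = 0.039) and under quantile normalization (adjusted p = 0.0093). Os9, a lectin of this pathway, was at 70.6, 66.4 and 78.8 FPKM in KO libraries against 71.8, 63.6 and 73.2 FPKM in WT libraries.

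**Figure D5:**
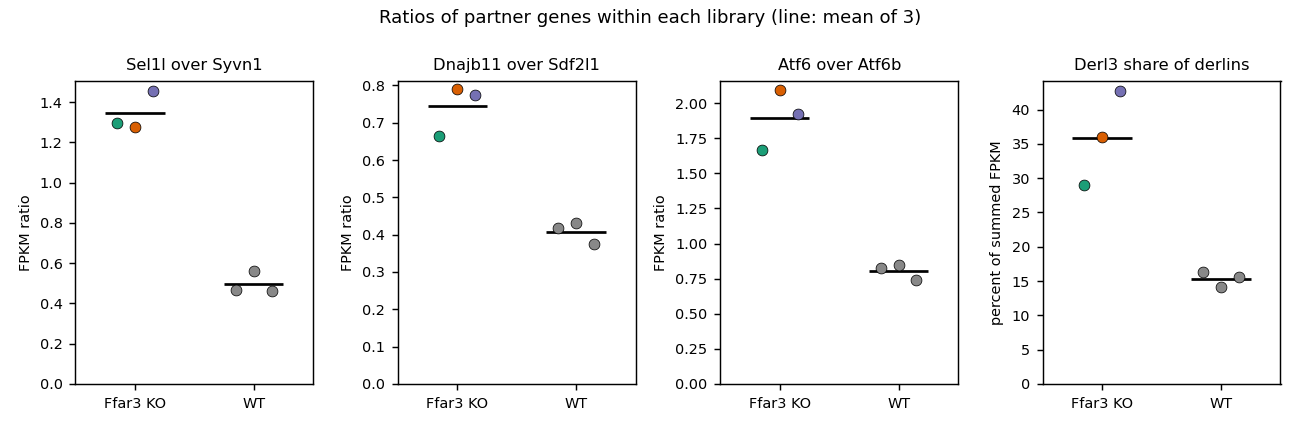
Ratios of FPKM between genes of one complex or family within each library, Ffar3 KO and WT (points, libraries, coloured as in the plot of sensors; lines, mean of 3). In all 4 panels the KO libraries lie above the WT libraries, and these ratios were chosen after the values had been seen.

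The lumenal chaperones and their helpers moved in both directions. Of 9 genes, Hsp90b1, Dnajb11 and Creld2 rose, Sdf2l1 fell, and 5 did not pass, where 20.3% of all tested rows rose and 19.6% fell. Hspa5, which encodes BiP and was the most abundant member, was at 2334, 2304 and 2904 FPKM in KO libraries, against 2775, 2157 and 2429 FPKM in WT libraries. The groups overlapped (log2 difference 0.03, SE 0.20, adjusted p = 0.90), and under quantile normalization the value was -0.96 (adjusted p = 0.084). Hsp90b1, the lumenal HSP90 known as GRP94, was at 1111, 1087 and 1335 FPKM in KO libraries, against 895, 785 and 805 FPKM in WT libraries. All KO libraries lay above all WT libraries, and KO replicate 1 beside KO replicate 2 (log2 difference 0.50, SE 0.13, adjusted p = 0.023). The call was lost without WT replicate 1, 2 or 3 (adjusted p of 0.065, 0.092 and 0.10), with the replicate number as a block (0.055), under non-acinar scaling (0.078, and 0.022 with insulin also left out), under quantile normalization (0.21) and without a filter (0.062). The ratio of Hsp90b1 to Hspa5 was 0.476, 0.472 and 0.460 in KO libraries and 0.323, 0.364 and 0.331 in WT libraries.

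Creld2, a secreted protein induced by ER stress, was at 219, 230 and 313 FPKM in KO libraries, against 172, 136 and 142 FPKM in WT libraries. It averaged 254 ± 51.1 FPKM in KO and 150 ± 19.3 FPKM in WT (SD, n = 3 each), with a log2 difference of 0.74 (SE 0.16, adjusted p = 0.010). Manf, another secreted ER stress protein, was at 242, 226 and 291 FPKM against 311, 240 and 289 FPKM, so that its groups overlapped (log2 difference -0.15, adjusted p = 0.39).

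Dnajb11 and Sdf2l1 encode ERdj3 and its partner in one BiP cochaperone complex. Dnajb11 was at 115, 118 and 150 FPKM in KO libraries, against 99.2, 85.9 and 93.3 FPKM in WT libraries (log2 difference 0.45, SE 0.11, adjusted p = 0.020). It missed the threshold without WT replicate 2 (adjusted p = 0.070), without WT replicate 3 (0.067), in the acinar-adjusted fit (0.084) and under non-acinar scaling (0.083, and 0.015 with insulin also left out). Sdf2l1 was at 173, 149 and 193 FPKM in KO libraries, against 237, 199 and 250 FPKM in WT libraries (log2 difference -0.41, SE 0.13, adjusted p = 0.038). Its highest KO value lay just under its lowest WT value, and the call was lost without WT replicate 1 or 3 (adjusted p of 0.12 and 0.13), without KO replicate 2 (0.098), without a filter (0.062) and in the acinar-adjusted fit (0.067). Within each library the ratio of Dnajb11 to Sdf2l1 was 0.666, 0.791 and 0.775 in KO and 0.418, 0.432 and 0.374 in WT. A two-sided exact permutation test of the ratio gave p = 0.1, the smallest that 3 against 3 allows, as it did for the ratios of Sel1l to Syvn1, Atf6 to Atf6b and Hsp90b1 to Hspa5 and for the Derl3 share. These ratios were chosen after the values had been seen.

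The other cochaperones did not pass. Hyou1, a nucleotide exchange factor of BiP, was at 295, 273 and 340 FPKM in KO libraries against 321, 259 and 314 FPKM in WT libraries, and Dnajc3, the cochaperone P58IPK, at 103, 100 and 133 FPKM against 117, 107 and 118 FPKM. Dnajb9, the cochaperone ERdj4 and a known target of XBP1, was at 314, 302 and 303 FPKM in KO libraries against 376, 326 and 333 FPKM in WT libraries. Its KO values all lay below its WT values, but by little (log2 difference -0.17, adjusted p = 0.15).

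The lectin chaperones and disulfide enzymes were nearly level between the groups, with log2 differences from -0.21 to 0.24. Of 8 genes, Ero1l rose and none fell, where 20.3% and 19.6% of all tested rows did. Ero1l, the general ER oxidase that recharges disulfide isomerases, was at 24.1, 23.5 and 25.1 FPKM in KO libraries, against 20.2, 20.4 and 20.7 FPKM in WT libraries. The groups were narrow and apart (log2 difference 0.24, SE 0.05, adjusted p = 0.011). The difference was 0.10 under non-acinar scaling (adjusted p = 0.54) and 0.19 with insulin also left out of those sums (adjusted p = 0.11). The call was also lost in the acinar-adjusted fit (0.22, adjusted p = 0.053) and without WT replicate 1 (0.23, adjusted p = 0.055). Ero1lb, the oxidase that is abundant in beta cells, was at 685, 537 and 599 FPKM in KO libraries, against 690, 686 and 721 FPKM in WT libraries. KO replicate 1 lay beside the WT libraries and the acinar-rich KO libraries below them (log2 difference -0.21, adjusted p = 0.19, and -0.30, adjusted p = 0.028, without KO replicate 1).

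P4hb, the protein disulfide isomerase PDI, was at 462, 505 and 726 FPKM in KO libraries against 498, 446 and 517 FPKM in WT libraries. Only KO replicate 3 stood clear of the WT range (adjusted p = 0.42). Pdia2, a pancreatic isomerase outside the 36 and named after its values were seen, was at 38.7, 410 and 959 FPKM in KO libraries against 40.9 to 64.0 FPKM in WT libraries. Calr (calreticulin) was at 792, 788 and 956 FPKM against 728 to 957 FPKM, and Canx (calnexin) at 172, 159 and 176 FPKM against 157 to 159 FPKM. Pdia3, the isomerase that works with these lectins, was at 643, 576 and 672 FPKM against 601 to 704 FPKM. Pdia4 was at 162, 143 and 176 FPKM against 153 to 169 FPKM, and Pdia6 at 303, 281 and 339 FPKM against 273 to 324 FPKM. None of these 5 passed in the whole comparison (adjusted p of 0.26 to 0.92). The groups of Canx did not overlap, and it was called higher under quantile normalization (adjusted p = 0.039).

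No translocation gene was called higher. Of 5, Ssr2 fell and 4 did not pass in limma, where 20.3% of all tested rows rose and 19.6% fell. At an unadjusted p under 0.05, 0 were higher, and the median log2 difference was -0.17. Ssr2, a subunit of the TRAP complex, was at 146, 125 and 142 FPKM in KO libraries, against 199, 171 and 202 FPKM in WT libraries. The groups did not overlap (log2 difference -0.47, SE 0.10, adjusted p = 0.0098), and KO replicate 1 alone gave -0.37 (adjusted p = 0.045). Its partner subunits were less far apart: Ssr1 was at 33.2, 34.0 and 37.3 FPKM in KO libraries against 40.5, 36.9 and 40.2 FPKM in WT libraries (adjusted p = 0.087), and Ssr3 at 190, 175 and 210 FPKM against 215, 191 and 209 FPKM (adjusted p = 0.41). Ssr1 was called lower under quantile normalization (adjusted p = 0.037) and without KO replicate 3 (adjusted p = 0.045). The ratio of Ssr2 to Ssr3 was 0.769, 0.712 and 0.674 in KO libraries and 0.925, 0.895 and 0.969 in WT libraries. This ratio too was chosen after the values had been seen. The channel subunit Sec61a1 was at 177, 174 and 191 FPKM in KO libraries against 184, 167 and 178 FPKM in WT libraries, and Sec61b at 335, 292 and 357 FPKM against 382, 358 and 398 FPKM (adjusted p = 0.13).

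Another 106 genes of the same pathways were read beside the 36, and 103 were tested: 13 rose (12.6%) and 23 fell (22.3%), where 20.3% and 19.6% of all rows did. Their median log2 difference was -0.06. In KO replicate 1 alone 6 were higher (5.83%) and 10 lower (9.71%), where 15.2% and 10.9% of all rows were. Among 20 further translocation genes 2 rose (10%) and 4 fell (20%). Srp19, a signal recognition particle protein, was at 24.7, 27.1 and 33.0 FPKM in KO libraries against 18.9 to 19.7 FPKM in WT libraries (log2 difference 0.51, adjusted p = 0.0088). Srprb, a subunit of the receptor for that particle, was at 31.4, 27.0 and 31.3 FPKM against 35.4 to 40.4 FPKM (log2 difference -0.35, adjusted p = 0.015), and Spcs2, a signal peptidase subunit, at 107, 93.0 and 104 FPKM against 117 to 132 FPKM (log2 difference -0.31, adjusted p = 0.023). Both calls were lost without WT replicate 1 (0.065 and 0.094) or WT replicate 3 (0.062 and 0.085), in KO replicate 1 alone (0.060 and 0.093) and in the acinar-adjusted fit (0.058 and 0.079), and that of Spcs2 without KO replicate 2 (0.057) and under non-acinar scaling (0.054). Among 20 glycosylation genes 1 rose (5%) and 6 fell (30%), while in KO replicate 1 alone 0 were called in either direction. Ostc, a subunit of the oligosaccharyltransferase, was at 215, 169 and 187 FPKM against 243 to 258 FPKM (log2 difference -0.41, adjusted p = 0.018), and missed the threshold without WT replicate 1 (0.069), without WT replicate 3 (0.071), in KO replicate 1 alone (0.052) and in the acinar-adjusted fit (0.058). Dad1 and Rpn1, subunits of the same enzyme, were at 253, 217 and 232 FPKM against 268 to 317 FPKM (Dad1, log2 difference -0.33, adjusted p = 0.032) and at 88.4, 79.5 and 90.5 FPKM against 94.5 to 114 FPKM (Rpn1, log2 difference -0.29, adjusted p = 0.039). Both calls were lost without WT replicate 1 (0.11 and 0.13), WT replicate 3 (0.12 and 0.13) or KO replicate 2 (0.088 and 0.10). They were also lost in KO replicate 1 alone (0.16 and 0.13), in the acinar-adjusted fit (0.097 and 0.093) and under non-acinar scaling (0.062 and 0.054). Dad1 lost its call without KO replicate 3 (0.062), under quantile normalization (0.062) and with insulin also left out of the sums (0.056), and Rpn1 without a filter (0.057). Among 26 further folding genes none rose and 6 fell (23.1%) in limma over all libraries, with 0 higher at an unadjusted p under 0.05. In KO replicates 2 and 3 against WT, Pdia2 (log2 difference 3.53, adjusted p = 0.00089), the peroxiredoxin gene Prdx4 (1.95, adjusted p = 0.0019) and the cyclophilin gene Ppib (1.07, adjusted p = 0.0050) were higher, and in KO replicate 1 alone they were at -0.46, -0.24 and 0.00. These 3 genes were named after their values were seen. Cnpy3, a cochaperone of the lumenal HSP90, was at 23.6, 21.4 and 22.6 FPKM against 31.2 to 36.7 FPKM (log2 difference -0.56, adjusted p = 0.0021), and Hspa13, an HSP70 relative, at 39.1, 33.3 and 36.5 FPKM against 49.0 to 54.8 FPKM (log2 difference -0.52, adjusted p = 0.0034). Fkbp14, a prolyl isomerase, was at 3.98, 3.98 and 3.20 FPKM against 5.84 to 6.13 FPKM (log2 difference -0.58, adjusted p = 0.0036).

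Among 21 further degradation genes 7 rose (33.3%) and 3 fell (14.3%). Erlin1, which marks ER receptors for removal, was at 12.7, 14.3 and 13.0 FPKM in KO libraries against 5.64 to 7.53 FPKM in WT libraries (log2 difference 0.96, adjusted p = 0.0011). Nploc4, a cofactor of the extracting ATPase VCP, was at 24.1, 25.5 and 26.1 FPKM against 19.5 to 20.7 FPKM (log2 difference 0.30, adjusted p = 0.0068, and adjusted p = 0.28 under non-acinar scaling, or 0.046 with insulin also left out). Among 16 further genes of the unfolded protein response 3 rose (18.8%) and 4 fell (25%). Their median log2 difference was 0.11 over all libraries and -0.06 in KO replicate 1 alone. The stress factor Ddit3 (CHOP), a target downstream of PERK, was at 167, 103 and 150 FPKM in KO libraries against 346 to 441 FPKM in WT libraries (log2 difference -1.49, adjusted p = 0.0019). Ppp1r15a (GADD34), which reverses the action of PERK on translation, was at 133, 104 and 109 FPKM against 212 to 255 FPKM (log2 difference -1.01, adjusted p = 0.0014). Creb3, a membrane-bound transcription factor, was at 55.0, 51.7 and 56.9 FPKM against 41.8 to 42.5 FPKM (log2 difference 0.36, adjusted p = 0.0038, and adjusted p = 0.20 under non-acinar scaling, or 0.026 with insulin also left out). Atf6b, the relative of Atf6 and named after its values were seen, was at 23.6, 17.7 and 20.3 FPKM against 30.2 to 36.2 FPKM (log2 difference -0.68, adjusted p = 0.0048). The ratio of Atf6 to Atf6b was 1.67, 2.09 and 1.93 in KO libraries and 0.825, 0.849 and 0.743 in WT libraries.

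The values of several members can hold reads of an overlapping gene, since the strand setting is not given in the sources used here. In the GENCODE M21 annotation, exons of Hsp90b1, Eif2ak3 and Ssr2 among the called members overlap exons of other genes (Gm15344, Gm25745 and 1810014B01Rik with Hsp90b1, Gm43292 with Eif2ak3, Gm10704 with Ssr2). No such overlap was found for Sel1l (chr12:91806043-91849157, minus strand), Derl3 (chr10:75893413-75895941, plus strand), Edem3 (chr1:151755371-151822051, plus strand), Creld2 (chr15:88819646-88826683, plus strand), Ern1, Atf6, Edem1, Dnajb11, Sdf2l1 or Ero1l.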

How the data were processed

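Islet RNA of 3 Ffar3 KO and 3 WT libraries was compared. Groups and replicate numbers came from the titles. TopHat2 2.0.8b, Cuffdiff 2.1.1 and build mm10 are named per the submitters' processing notes. The deposited tables name no unit, and FPKM, which Cuffdiff writes, was assumed; a scaling between libraries may be included. The sources used here state neither annotation nor strand setting. Total depth is unknown, so no counting interval is given. P-values measure the spread between these libraries.

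Rows whose mean reached 1 FPKM (11669 of 23179) were tested on log2(FPKM + 1) with limma 3.58.1 in R 4.3.3 (eBayes, trended prior; genotype was the sole term; two-sided), and p-values were adjusted by Benjamini-Hochberg over all tested rows and called under 0.05. On this log2 scale changes of low values are understated. No member was at 0 in any library. The method was run on simulated data in which both groups had the WT spread. In the real data the log2 SD was larger in KO than in WT for 73.6% of tested rows and 29 of 36 members. That run therefore does not give the error rate for these libraries. Members and gene lists were chosen with earlier results of these data known, and all 36 members are named; of the other ER genes, those of the 3 smallest adjusted p in each list, except 1 gene that is not reported here. List symbols missing from the files were matched through RefSeq synonyms. The number shared by KO and WT titles is not shown to pair the libraries. The deviations of same-numbered libraries correlated at -0.21, -0.09 and 0.03 over tested rows, and those of differently numbered ones at -0.16 to 0.20. With 3 libraries per group such correlations cannot exclude a shared batch. Python 3.11.15, pandas 2.3.3 and matplotlib 3.10.9 made the tables and figures. Alternatives were a pseudocount of 0.1, a filter at 5 FPKM or none, median-of-ratios factors, non-acinar scaling, quantile normalization, a robust prior, the acinar-adjusted fit, the replicate block, KO replicate 1 alone and each library left out. After seeing the data, non-acinar scaling that also leaves out insulin and the acinar-adjusted fit without Amy2b were added.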

Additional observations from a re-analysis of the deposited data

How the results depend on the processing

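Of 36 ER genes, 11 were called higher and 2 lower, and 7 of these 13 calls were kept in all 18 alternatives. No called member changed sign in any of them. Among the 23 uncalled members, 12 changed sign in at least 1 alternative without a call in the new direction, and 6 were called in at least 1. The cause of these changes was not tested. The number called higher was 7 under non-acinar scaling, where 7.64% of all rows were. The number called lower was 1 without a filter and 4 under quantile normalization, where 4383 and 4830 rows were called in either direction. With 1 library left out, 8 to 12 were higher and 1 to 4 lower. The 8 higher were seen without WT replicate 1, 2 or 3. Only 1 was lower without KO replicate 2, WT replicate 1 or WT replicate 3, and 4 were lower without KO replicate 3. Without KO replicate 1, 12 were higher and 3 lower, where 24.8% and 24.3% of all rows were. For the other left-out libraries and the replicate block no share by direction is given, so those counts cannot be set against the background. The median of the members lay between -0.11 and 0.09 in all 18 alternatives. Of all tested rows 4657 were called, but 2493 under non-acinar scaling, 3041 in KO replicate 1 alone, 2881 in the acinar-adjusted fit and 2798 in that fit without Amy2b. With 1 library left out the count was between 2481 (without WT replicate 1) and 5727 (without KO replicate 1), and it was 2507 without WT replicate 3. Fewer libraries or an added term leave fewer residual degrees of freedom. The fit with the replicate number as a block called 10 members higher and 2 lower, and only Hsp90b1 lost its call (adjusted p = 0.055); the numbers are not shown to pair the libraries. Unknown depth limits what low values in KO replicate 3 can show.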
